A study of Rattus norvegicus with 12 samples.

Results

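The T cell genes were Cd3d, Cd3e, Cd3g, Cd4, Cd8a, Cd28, Lck, Il7r, Ccr7 and Ccr4, 10 of the 26456 genes on the array. Their probes were found by the gene symbol that the array annotation gives each probe. These genes, and the lists of other genes below, were chosen with earlier results of these data known. Counts and medians over them are therefore descriptions. All 10 were on the array, with 11 of its 30367 gene probes: Il7r had 2 probes and each other gene had 1. The samples were lumbar mammary glands of female Wistar rat offspring, cleared of visible lymph nodes before freezing. Their dams ate a diet with 17.0% protein (normal protein, NP) or 8.8% protein (low protein, LP) through pregnancy. Litters were reduced to 6 females, and the pups were nursed until day 21. The dams during lactation and the weaned rats had standard chow. Glands were taken at day 21 or day 28 of life, from 3 rats in each of the 4 groups of diet and day, and total RNA from each rat was labelled with Cy3 and put on 1 array. The labels do not say whether the 3 rats of a group came from separate litters.

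T lymphocytes recognise peptide antigens through the T cell receptor, whose CD3 chains pass the signal into the cell, where the kinase Lck starts the phosphorylation cascade. The coreceptor CD4 marks helper T cells and CD8 marks cytotoxic T cells, and both hold the receptor to the antigen-presenting molecule. In the mammary gland T cells lie in and around the ducts and in the intramammary lymph nodes, which sit in the fat pad and are dense with naive T and B cells.

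Each value is the log2 of the background-subtracted signal of a probe minus the log2 of the 75th percentile of the gene spots on the same array, so 0 is the level of that percentile and 1 unit is a 2-fold change. A probe is well above background on an array when the scanner software calls at least 0.5 of its spots so. Between 74.8% and 79.6% of the gene spots were well above background on the 12 arrays, and 0 gene spots were saturated. Probes well above background on at least 3 arrays, 23209 in all, were tested with limma, a linear model that shares the variance between probes, and all p values are two-sided. An adjusted p is corrected over all tested probes by the Benjamini-Hochberg method and an unadjusted p is not. Of the T cell genes 9 of 10 were tested: Cd28 was well above background on only 1 array. With 3 arrays in each group, their number limits the precision.

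Array LP6a of day 21 stood apart from the others. It correlated with the remaining arrays at a median r of 0.960, where each of those 11 had a median between 0.974 and 0.989. On that array 362 of 23177 probes, 1.56%, were lowest of the 12 arrays by at least 4-fold. The next highest such count was 106, on NP4f of day 28, and the other 10 arrays had between 0 and 9. Of the 9 tested T cell genes 7 were among the 362 probes, all but Cd4 and Ccr4. Results are therefore given with and without LP6a. Each day had its own slide, so an effect of day cannot be told apart from one of slide, but both diets were on each slide. On both slides the 3 NP arrays lay in the upper row, together with LP4a at day 21 and LP4f at day 28. The other LP arrays lay in the lower row.

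Per-array values are listed for NP rats 4a, 5a and 6a and LP rats 4a, 6a and 7c at day 21, and for NP rats 4f, 5f and 6f and LP rats 4f, 6f and 7f at day 28, always in that order. The 3 CD3 chains, which carry the signal of the T cell receptor, come first. At day 21 Cd3d read 3.03, 2.90 and 2.87 in NP and 2.83, −3.04 and 2.58 in LP, and at day 28 it read 3.36, 3.34 and 2.93 in NP and 2.85, 2.60 and 1.98 in LP. For Cd3g the values were 2.76, 2.66 and 2.54 in NP and 2.53, −4.48 and 2.38 in LP at day 21, and 3.07, 3.02 and 2.70 in NP and 2.62, 2.57 and 1.86 in LP at day 28. Cd3e was at −0.31, −0.32 and −0.14 in NP and −0.33, −7.12 and −0.65 in LP at day 21, then at −0.08, 0.03 and −0.39 in NP and −0.58, −0.61 and −1.07 in LP at day 28. For each chain the LP values lay below all NP values of the same day, at both days, but at day 21 LP4a lay just below the NP range while LP6a lay far below it. The Cd3e value of LP6a was not well above background. Measured against the mean of the other 5 arrays of day 21, LP6a was 58.9-fold lower for Cd3d and 133-fold lower for Cd3g. In bulk tissue fewer T cells and less RNA per T cell cannot be told apart.

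Repeated spots show how closely a probe was read on each array. Cd3d has 10 spots on each array, with a standard deviation between 0.0118 and 0.0691 log2 units within an array. The 10 spots of Cd3g varied by 0.0248 to 0.216. The low Cd3d and Cd3g readings of LP6a are therefore not the reading of a single spot.

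The coreceptors differed in how far LP6a departed. Cd4, which is also made by rat macrophages, read −2.19, −2.0 and −1.83 in NP and −1.94, −3.57 and −2.22 in LP at day 21, and −2.22, −2.02 and −2.35 in NP and −2.35, −2.29 and −2.51 in LP at day 28. Cd8a, a chain of the coreceptor of cytotoxic T cells, read −0.90, −0.88 and −0.82 in NP and −0.74, −5.46 and −1.60 in LP at day 21, and −0.61, −0.72 and −0.76 in NP and −1.28, −0.85 and −1.03 in LP at day 28. Cd4 overlapped between the diets at both days, and its LP6a value was 2.9-fold below the mean of the other 5 arrays of day 21. Cd8a overlapped at day 21, where LP4a was the highest array, but not at day 28, and its LP6a value was 22.2-fold below that mean.

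Lck, the kinase bound to the coreceptors, read −0.68, −0.71 and −0.52 in NP and −0.59, −4.86 and −1.19 in LP at day 21. At day 28 its values were −0.49, −0.67 and −0.91 in NP and −1.02, −1.03 and −1.47 in LP. The diets overlapped at day 21 through LP4a and were apart at day 28, with LP below NP. LP6a was 17.3-fold below the mean of the other arrays of its day. Cd28, the receptor that gives T cells the costimulatory signal, was well above background only in NP4a of day 21, at −6.47. Its other 11 values ran from −8.89 to −7.17, at the level of the background, and no difference between the diets could be read from them.

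Il7r codes for the receptor of interleukin 7, on which naive and memory T cells depend for survival. The probe with the higher mean signal read −2.27, −1.74 and −2.04 in NP and −2.04, −6.15 and −2.60 in LP at day 21, and −1.22, −1.61 and −2.30 in NP and −2.16, −2.01 and −2.29 in LP at day 28. The other Il7r probe read −2.44, −1.61 and −2.25 in NP and −1.93, −7.83 and −2.71 in LP at day 21, and −1.22, −1.70 and −2.13 in NP and −2.13, −1.95 and −2.40 in LP at day 28. Both probes put the same arrays high and low, with LP6a lowest and NP4f highest, and the diets overlapped at both days, at day 28 because NP6f read as low as the LP arrays. LP6a was 16.1-fold below the mean of the other arrays of its day by one probe. By the other probe it was not well above background, and at least 44.6-fold lower when set at −7.67, the lowest value of any probe well above background on that array.

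Ccr7 and Ccr4 are chemokine receptors: CCR7 brings naive T cells into lymph nodes, and CCR4 is found on memory helper and regulatory T cells. Ccr7 read −1.20, −1.18 and −1.01 in NP and −1.12, −5.78 and −1.74 in LP at day 21, and −1.18, −1.10 and −1.57 in NP and −1.79, −1.91 and −2.09 in LP at day 28. Ccr4 read −5.50, −5.93 and −5.52 in NP and −5.94, −8.72 and −5.43 in LP at day 21, and −6.02, −5.98 and −5.89 in NP and −7.29, −6.95 and −8.50 in LP at day 28. Both genes had all LP values below all NP values at day 28 and overlapping values at day 21. LP6a was 23-fold below the mean of the other 5 arrays for Ccr7 and at least 4.01-fold below it for Ccr4, whose LP6a value was not well above background. The Ccr4 values of LP4f and LP7f at day 28 were not well above background either.

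**Figure D1:**
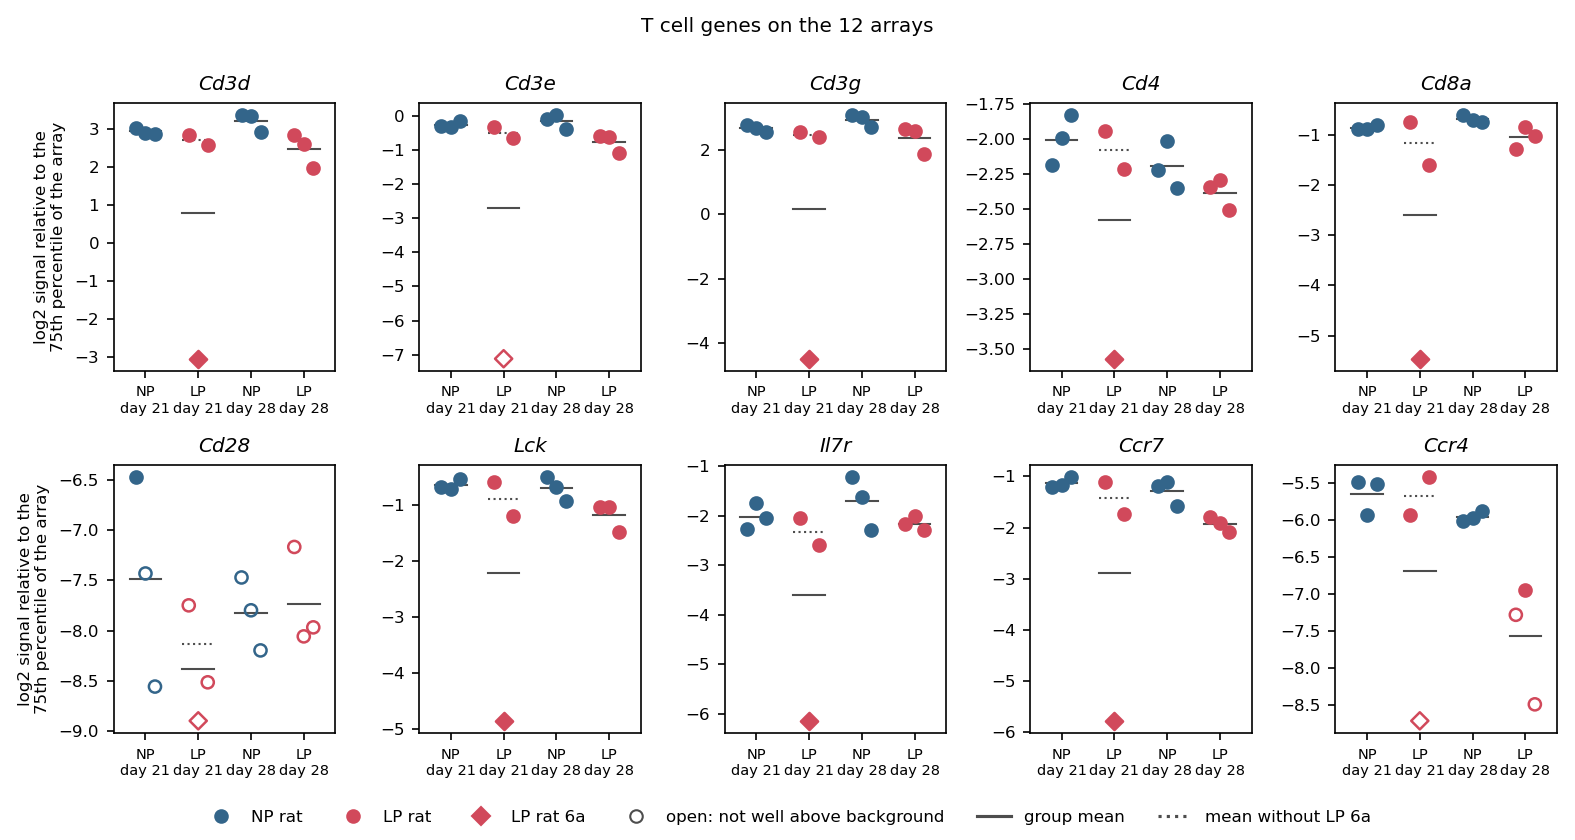
Log2 signal relative to the 75th percentile of the array (y axis) for each T cell gene in the 4 groups of diet and day (x axis), 1 point per rat. Bars are group means, dotted bars leave out LP6a, and open points are not well above background. LP6a (diamond) gives the lowest reading of the 12 arrays for all 10 genes, from −3.04 for Cd3d to −8.89 for Cd28, but those of Cd28 and Ccr4 are not well above background and cannot be ranked.

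LP6a gave the lowest reading of the 12 arrays for all 10 T cell genes, and for 4232 of 23177 probes in all. For 8 genes it was also lowest when set no lower than −7.67, and for Cd28 and Ccr4, not well above background there, its rank cannot be read. Among the other 11 arrays LP7f of day 28 was the lowest for Cd3d, Cd3e, Cd3g, Cd4, Lck and Ccr7, and LP7c of day 21 for Cd8a and Il7r. Cd28 and Ccr4 were not ranked. The 9 tested genes moved together across arrays: without LP6a, their pairwise correlations over 11 arrays had a median of 0.665 in 36 pairs. The lowest was 0.098, between Ccr4 and Il7r, and the highest 0.98. With LP6a the median over 12 arrays was 0.973.

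At day 21 all 9 tested T cell genes had a lower mean in LP than in NP with or without LP6a, against 47.8% and 47.4% of all tested probes. In limma 0 of 9 had an unadjusted p under 0.05, with or without LP6a. These calls turned with the arrays used: without LP4a 8 of 9 had such a p, all but Ccr4 (against 8.46% of all tested probes), and without LP7c 5 did, Cd3d, Cd3e, Cd3g, Ccr7 and Ccr4 (against 8.63%), each time with LP6a as 1 of the 2 LP arrays left. With outlier spots kept, Cd8a (−1.95) had such a p in the model of 12 arrays, against 4.43% of all tested probes. In the models with no such change 4.36% of all tested probes had such a p with LP6a (2.26% lower in LP) and 2.08% without it (1.2% lower in LP). The median difference of the 9 genes was −1.74 with LP6a and −0.24 without it, against 0.01 over all tested probes both ways. For Cd3g the difference was −2.51 with a 95% interval of −5.81 to 0.79 with LP6a, and −0.20 with an interval of −0.70 to 0.31 without it. For Cd8a it was −1.74, from −3.80 to 0.33, with LP6a, and −0.31, from −0.82 to 0.20, without it. The adjusted limma p of each of the 9 genes at day 21 was 0.861 or more. The LP values of 3 genes, Cd3d, Cd3e and Cd3g, lay below all NP values, and the same 3 did so without LP6a. Of all probes 5.95% had LP values all below NP, or 8.23% without LP6a. Relative to the NP mean of the day, the median over the 9 genes was −0.02 in LP4a, −0.40 in LP7c and −4.60 in LP6a. LP7c lay below all NP arrays of the day for 8 of the 9 genes, all but Ccr4, and LP4a for 4, against 23.6% and 20.8% of all tested probes.

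At day 28 the LP mean was lower than the NP mean for all 9 tested genes, against 57.3% of all tested probes. All LP values lay below all NP values for 7 genes: Cd3d, Cd3e, Cd3g, Cd8a, Lck, Ccr7 and Ccr4. Over all probes 12.4% had LP values all below NP and 4.41% all above. The median difference of the 9 tested genes was −0.57, against −0.05 over all tested probes. In the model of all 12 arrays 1 of 9, Ccr4, had an unadjusted p under 0.05, against 8.07% of all tested probes (6.09% lower in LP). Without LP6a 6 of 9 did, all lower in LP, against 11% of all tested probes (8.7% lower in LP). Without LP6a 4 of 9 did with a replicate block (Cd3d, Cd3e, Ccr7 and Ccr4, against 8.41% of all tested probes) and 4 with normexp background correction (Cd3d, Cd3e, Cd3g and Ccr7, against 8.61%), both chosen after the data were seen. With only the arrays of day 28 fitted it was 6 of 9, with Cd8a and without Cd3g, against 7.47%.

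LP6a is not a day 28 array and does not enter these differences, but it enters the variance that the model shares between the 4 groups. The standard error of the Cd3d difference at day 28 was 1.23 with LP6a and 0.217 without it. Cd3d was 1.66-fold lower in LP, a log2 difference of −0.74 with a 95% interval of −1.23 to −0.25 without LP6a (limma adjusted p = 0.420) and of −3.48 to 2.01 with it (adjusted p = 0.818). Cd3e was 1.52-fold lower, a difference of −0.61 with an interval of −0.99 to −0.22 without LP6a (limma adjusted p = 0.420) and of −3.75 to 2.54 with it (adjusted p = 0.877). Cd3g was 1.49-fold lower, at −0.57 with an interval of −1.03 to −0.12 without LP6a (limma adjusted p = 0.420) and of −3.87 to 2.72 with it (adjusted p = 0.890). Without LP6a all 3 intervals lay below 0 and overlapped each other.

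Lck was 1.40-fold lower in LP at day 28, a difference of −0.48 with an interval of −0.92 to −0.05 without LP6a (limma adjusted p = 0.436) and of −2.40 to 1.43 with it (adjusted p = 0.830). Ccr7 was 1.56-fold lower, a difference of −0.65 with an interval of −1.06 to −0.23 without LP6a (limma adjusted p = 0.420) and of −2.73 to 1.44 with it (adjusted p = 0.790). Ccr4 had a difference of −1.61 with an interval of −2.40 to −0.83 without LP6a (limma adjusted p = 0.420) and of −3.23 to −0.002 with it (adjusted p = 0.581). Its size rests on readings that were not well above background in 2 of the 3 LP rats: with another background correction (normexp, offset 50) in the model of 12 arrays it was −0.27, smaller than that of Cd3d (−0.69). Without LP6a, too, the Ccr4 call was lost with normexp. The Ccr4 call in the model of 12 arrays lay at the threshold and was lost with normexp, with a replicate block or a random block, with the slide row, with outlier spots kept, and in 9 of the 12 models that left out 1 array. Cd8a (−0.36, interval −0.81 to 0.10), Il7r (−0.45, −1.06 to 0.16) and Cd4 (−0.19, −0.50 to 0.12) had intervals that included 0 at day 28 without LP6a, and wider ones with it. Leaving out 1 array moved the Il7r difference to −0.20 (without NP4f) or −0.74 (without NP6f) and that of Cd4 to −0.10 (without NP5f) or −0.26 (without NP6f).

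No T cell gene passed the adjusted limma test at either day. The lowest adjusted p over all tested probes was 0.164 at day 21 and 0.581 at day 28, and 0.9998 and 0.4197 without LP6a. At an unadjusted p under 0.05 there were 1011 probes at day 21 and 1873 at day 28, and 482 and 2547 without LP6a.

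Every LP rat of day 28 was on the low side, LP7f most. The median over the 9 genes relative to the NP mean was −0.43 in LP4f, −0.36 in LP6f and −0.81 in LP7f. LP4f, which lay in the same slide row as the NP arrays, was below all NP arrays for 7 of the 10 genes, LP6f for 7 and LP7f for 8. Over all tested probes the shares below all NP arrays were 29.6% in LP4f, 28.9% in LP6f and 35.6% in LP7f. With only the 8 arrays of the upper row, a model chosen after the data were seen in which the 1 LP array of a day is assumed to vary like the other groups, the median difference was −0.02 at day 21 and −0.43 at day 28. At day 28 all 9 differences were then negative, and Cd8a (−0.59) and Ccr4 (−1.32, with LP4f not well above background) had an unadjusted limma p under 0.05, against 3.3% of all tested probes. In a model of all 12 arrays with the row as a term, the median difference at day 28 turned to 0.40, with LP6a among the lower-row arrays that set the row term. No NP array lay in the lower row, so that term cannot be told apart from differences between LP rats. In the same model without LP6a, chosen after the data were seen, the median difference at day 28 was −0.38, and Ccr4, at −1.59, was the only one of the 9 genes with an unadjusted limma p under 0.05, against 5.3% of all tested probes. The differences of Cd3d, Cd3e, Cd3g and Ccr7 were then −0.45, −0.42, −0.38 and −0.39. Without both LP6a and LP7f, also chosen after the data were seen, the day 28 differences were −0.49 for Cd3d, −0.45 for Cd3e, −0.33 for Cd3g and −0.56 for Ccr7, each with an unadjusted limma p under 0.05, against 5.76% of all tested probes.

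**Figure D2:**
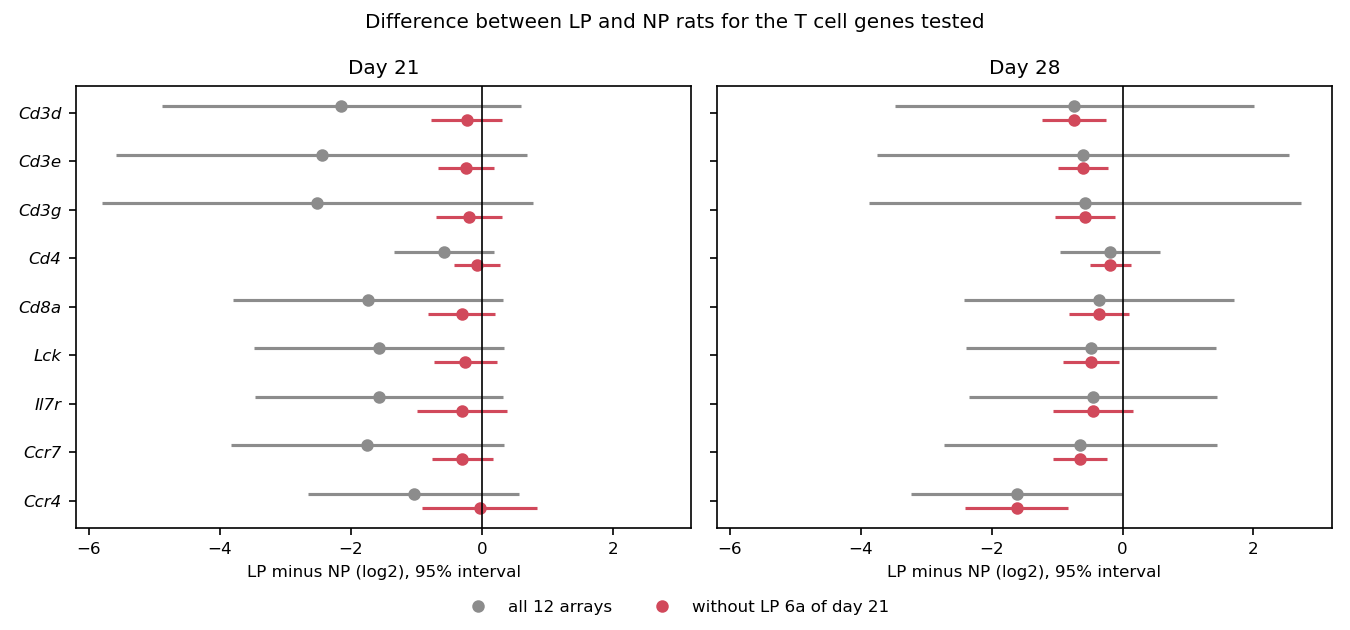
LP minus NP on the log2 scale (x axis) for the 9 tested T cell genes (y axis) at day 21 and day 28. Points are the limma estimates and lines their 95% intervals, with all 12 arrays and without LP6a. Leaving out LP6a brings the day 21 median from −1.74 to −0.24 and narrows the day 28 intervals around unchanged estimates.

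The change of the LP against NP difference between the days was tested as an interaction. With all arrays 0 of 9 T cell genes had an unadjusted limma p under 0.05, against 2.26% of all tested probes, and without LP6a only Ccr4 did, at −1.58 with a 95% interval of −2.76 to −0.41, against 2.71%. That value, and the Ccr4 change in LP rats below, rest on day 28 readings that were not well above background in LP4f and LP7f. A larger difference at day 28 than at day 21 was thus not shown for the CD3 chains, the coreceptors, Lck, Il7r or Ccr7. Between the days in NP rats 0 of 9 had such a p, against 12.8% of all tested probes, and their median change was 0.10. In LP rats 0 of 9 had such a p with LP6a, against 10.1%. Without LP6a, 2 of 9 did, against 7.27%: the change from day 21 to day 28 was −0.50 for Ccr7 (95% interval −0.97 to −0.04) and −1.90 for Ccr4 (−2.77 to −1.02). The LP median change from day 21 to day 28 was 1.44 with LP6a and −0.26 without it, so its sign rests on that array.

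The other genes of the T cell receptor pathway were mostly low on LP6a too, where Grap2, Trat1, Rasgrp1 and Nfatc2 were not well above background. Of 19 genes that pass on its signal, all tested, the summed linear signal relative to the 75th percentile was 22.8, 21.7 and 20.9 in NP and 21.4, 1.18 and 17.0 in LP at day 21. At day 28 the sum was 31.0, 27.0 and 20.3 in NP and 19.0, 18.1 and 13.3 in LP. The 3 LP arrays of day 28 were below the NP arrays, and LP6a was lowest of the 12 arrays by at least 4-fold for 15 of the 19 genes. The brightest gene was Cd247, the zeta chain of the receptor complex. At an unadjusted limma p under 0.05, 1 gene was lower in LP at day 21 and 1 at day 28, or 1 and 16 without LP6a, and 0 were higher. For these and the following lists, the shares of all tested probes lower in LP at such a p were 2.26% at day 21 and 6.09% at day 28, or 1.2% and 8.7% without LP6a. The 3 of the 19 that did not have such a p at day 28 without LP6a were Vav1, Fyn and Nfatc2, and the 1 at day 21 was Sh2d2a (−0.46). Genes named for the model without LP6a, here and in the other lists, were chosen after their values were seen. The median difference was −1.47 at day 21, −0.19 without LP6a, and −0.65 at day 28. Ubash3a, a brake on receptor signalling, was the gene at day 21, with a difference of −0.50, or −0.26 without LP6a. Rasgrp1, which activates Ras after receptor engagement, was the gene at day 28 with all arrays, at −0.92, and was well above background on 9 arrays.

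Of 17 other T cell surface molecules, all tested and brightest in Il2rg, 1 was lower in LP at day 21 and 0 at day 28, or 0 and 10 without LP6a, with 0 higher. The 10 genes included Cd2, Cd5, Cd6, Cd27 and Tcrb, at −0.58, −0.59, −0.80, −0.73 and −0.85, the last coding for the beta chain of the T cell receptor. Thy1, which stromal cells also carry, was on the other side, highest in LP6a and at 0.72 at day 28. The median of the 17 was −1.30 at day 21, −0.19 without LP6a, and −0.53 at day 28. On LP6a 8 of the 17 were not well above background, Cd2, Cd5 and Tcrb among them. Cd7, an early T lineage molecule, was the gene at day 21, at −0.67, or −0.28 without LP6a. Of 10 T cell transcription factors, brightest in Tbx21, 2 were lower at day 21 and 0 at day 28, or 0 and 6 without LP6a, with 0 higher. The 6 at day 28 were Tcf7, Lef1, Bcl11b, Foxp3, Ikzf1 and Satb1, of which Tcf7 (−0.75), Lef1 (−1.08) and Bcl11b (−0.81) set T cell identity. Gata3, a factor of helper T cells and of mammary luminal epithelium, went the other way without passing the test, at 0.84 at day 21, 0.47 without LP6a and 0.41 at day 28, and was highest of the 12 arrays in LP6a. Tbx21 and Runx3 in LP6a lay within the range of the other arrays of day 21. Foxp3, the factor of regulatory T cells, had a difference of −1.03 at day 21, and Ets1, which T cells share with other cells, had −0.90. Without LP6a the differences at day 21 were −0.48 for Foxp3 and −0.57 for Ets1. The median of the 10 factors was −0.93 at day 21, −0.13 without LP6a, and −0.63 at day 28.

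Homing receptors guide lymphocytes between blood, lymph node and tissue. Of 15 on the array 13 were tested, brightest in S1pr1, and 3 were lower in LP at day 21 and 0 at day 28, or 1 and 4 without LP6a, with 0 higher. Those at day 28 without LP6a included Klf2, Ccr9 and Itgb7, at −0.40, −0.39 and −0.57. Cxcr6, found on tissue T cells, was lower at day 21 with a difference of −1.08, and −0.69 without LP6a, where it was the gene that still passed. Cxcr5, which leads cells into follicles, had a difference of −1.22, with LP6a not well above background, or −0.68 without LP6a. Klf2, which keeps naive T cells circulating, had −0.52, or −0.24 without it. The median of the 13 was −0.59 at day 21, −0.34 without LP6a, and −0.39 at day 28.

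The ligands of the receptors among the 10 genes are mostly made by other cells, and the list also held Il15, which binds none of the 10. Of 9 genes on the array 7 were tested, brightest in Ccl21, with 0 lower or higher at either day, or 0 and 2 lower without LP6a, Il7 (−0.48) and Ccl22 (−0.88) at day 28. Ccl19 and Ccl21, the ligands of CCR7, are made by lymph node stroma. Ccl19 read −2.28 in LP6a and between 3.82 and 4.67 elsewhere, with LP7f the highest of the 12 arrays. Ccl21 read 1.78 in LP6a, 2.78 in LP7f and between 3.71 and 4.62 elsewhere. Ccl17 and Ccl22, the ligands of CCR4, are made by dendritic cells. Ccl17 read −4.95 in LP6a and −1.05 in LP7f, and Ccl22 read −4.10 in LP6a and −1.85 in LP7f. For both, these were the lowest and the next lowest of the 12 arrays. The median difference of these 7 genes was −0.98 at day 21, −0.22 without LP6a, and −0.39 at day 28.

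**Figure D3:**
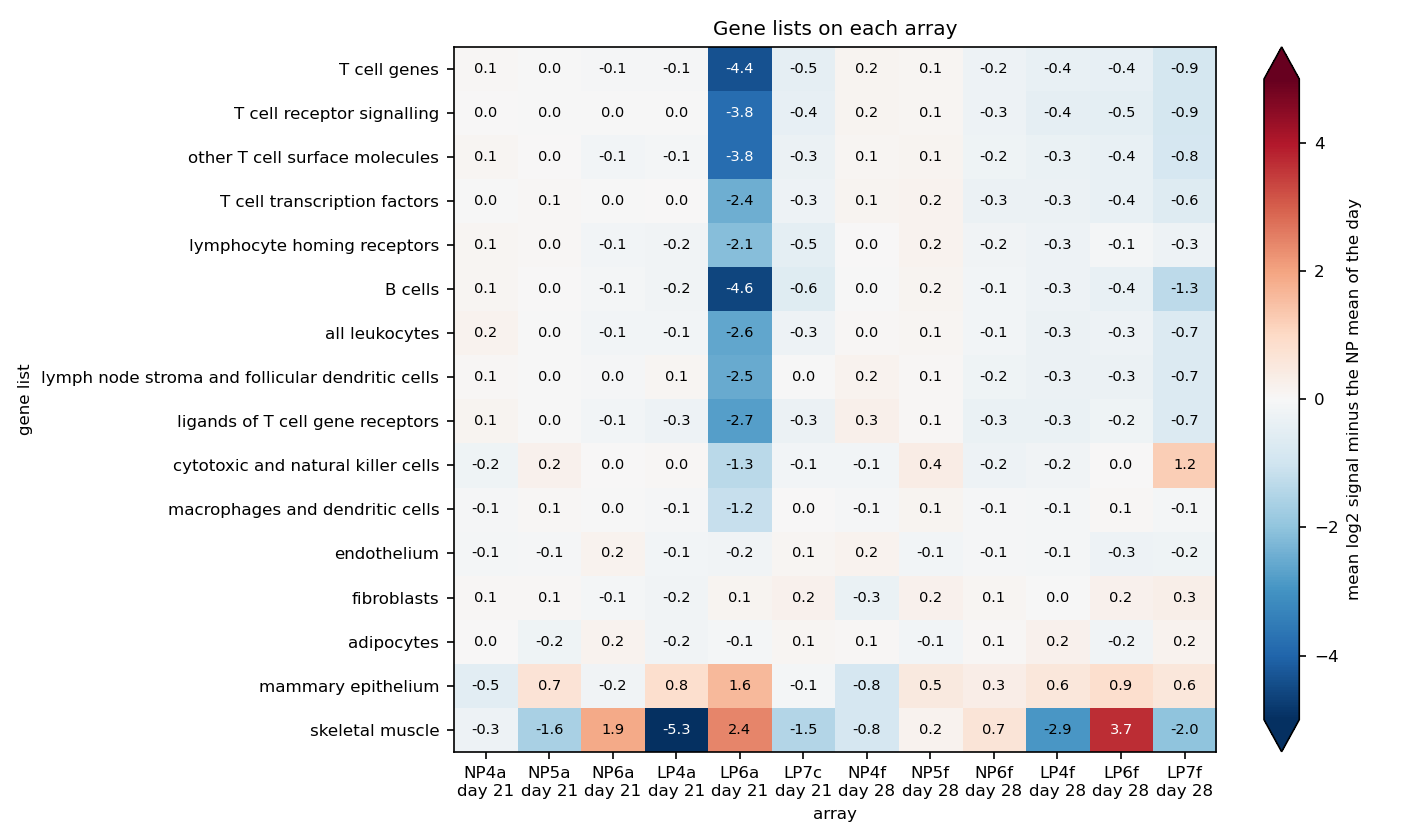
Mean log2 signal of each marker list minus the mean of the NP arrays of the same day, for the 12 arrays (columns) and the T cell genes and 15 lists (one line each). LP6a is lowest for the T cell, B cell, lymph node, homing receptor and ligand lists. It is also lowest for the lists of all leukocytes, of cytotoxic cells, and of macrophages and dendritic cells. The summed signals of the T cell genes were 0.352 in LP6a and 9.52 to 22.1 elsewhere.

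Markers of other cells moved with the T cell genes on LP6a, and their part in the T cell results was not tested. The summed signal of the 10 T cell genes was 17.8, 16.8 and 16.3 in NP and 15.9, 0.352 and 13.3 in LP at day 21, and 22.1, 21.5 and 16.7 in NP and 15.7, 14.4 and 9.52 in LP at day 28, brightest in Cd3d. Of 14 B cell genes, all tested, the sum was 21.1, 18.9 and 17.3 in NP and 16.2, 2.22 and 13.1 in LP at day 21, and 22.6, 22.5 and 20.9 in NP and 19.0, 17.1 and 10.6 in LP at day 28, brightest in Faim3. These sums put the same 2 arrays lowest, LP6a and LP7f, and in LP6a 4 B cell genes were not well above background: Ms4a1, Blk, Cr2 and Fcer2. Lower in LP were 2 B cell genes at day 21, Faim3 (−0.79) and Blnk (−0.75), and 0 at day 28, or 2 (among them Blk, at −0.61) and 7 without LP6a. The B cell median difference was −2.01 at day 21, −0.39 without LP6a, and −0.61 at day 28.

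Lymph node stroma and follicular dendritic cells had 8 genes on the array and 6 tested, brightest in Ccl21, with a sum of 5.17 in LP6a and 35.2 to 60.5 elsewhere. None passed at either day with all arrays in limma at an unadjusted p under 0.05 (0 at day 21 and 0 at day 28), and 2, Ltb (−0.78) and Tnfsf11 (−1.03), were lower at day 28 without LP6a. The other tested members, Cxcl13 (−0.26), Ccl19 (−0.22), Ccl21 (−0.72) and Madcam1 (−0.24), did not pass there. The median difference of the 6 tested genes was −1.13 at day 21, −0.05 without LP6a, and −0.49 at day 28. Ltb, the lymphotoxin that shapes lymphoid tissue, read −2.35 in LP6a and 1.28 to 2.84 elsewhere. Cxcl13, the follicle chemokine, read 0.10 in LP6a and 1.33 to 2.54 elsewhere. Madcam1 was not lowest in LP6a, at −2.01, and its day 21 difference was 0.17, or 0.44 without LP6a. Of 10 genes common to all leukocytes, brightest in Laptm5, the sum was 17.8 in LP6a, 73.0 in LP7f and 89.6 to 148 elsewhere. Among them 1 was lower at day 21, Cd48 (−0.24), and 0 at day 28, or 0 and 6 without LP6a, with medians of −1.07, −0.17 without LP6a, and −0.45.

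On LP6a the summed signal of macrophage and dendritic cell genes departed less than that of the T cell genes. The sum of 16 such genes, all tested and brightest in Lyz2, was 47.9 in LP6a and 92.2 to 148 elsewhere, and LP7f, low for T cell genes, had 148. Within the list Marco departed far, at −8.76 in LP6a, not well above background, and −5.39 in LP7f, against −1.0 to 0.32 elsewhere. Only Cx3cr1 was lower in LP at day 28 (−0.47) and 0 at day 21, or 0 at either day without LP6a, with medians of −0.26, −0.01 without LP6a, and 0.14. Of 16 cytotoxic and natural killer cell genes 14 were tested, brightest in Prf1, and 2 were lower at day 21, Gzmm (−1.26) and Klrb1a (−1.32), and 0 at day 28, or 0 and 2 without LP6a (Klrd1 at −1.05 and Ctsw at −0.85). Their medians were −0.69, −0.33 without LP6a, and 0.26 at day 28. Relative to the NP mean of the day, their mean log2 signal was −0.17 in LP4f, 0.02 in LP6f and 1.23 in LP7f, so a positive value rests on LP7f. Their sum was 0.981 in LP6a, 8.89 in LP7f and 2.15 to 3.92 elsewhere. LP7f, with the lowest summed signal of the T cell genes at day 28, thus had the highest sum of cytotoxic genes. Its Cd8a value was not the lowest of that day.

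Mammary epithelium, with 13 genes tested and Krt18 brightest, was on the other side of the T cell genes on LP6a: the sum was 64.8 there and 15.0 to 38.9 elsewhere, and 11 of the 13 genes were highest of the 12 arrays in LP6a. Cldn3 was higher in LP at day 21 (0.91), 0 genes passed at day 28 or without LP6a, and the medians were 0.81, 0.45 without LP6a, and 0.64 at day 28. At day 28, 5 of the 13 had all LP values above all NP values, against 4.41% of all probes. The day 28 difference lay below 0 for 0 of the 13, against 57.3% of all tested probes. Skeletal muscle varied most: the sum of 8 genes, brightest in Mylpf, was 94.9 in LP6a, 70.4 in LP6f and 63.3 in NP6a, and 0.906 to 15.7 elsewhere. None of the muscle genes passed the limma test at an unadjusted p under 0.05 (0 at either day), and their medians were −1.49, −3.64 without LP6a, and −0.30. Adipocytes (7 genes, sums of 148 to 275, brightest in Cfd), fibroblasts (6 genes, 285 to 437, Col1a1) and endothelium (6 genes, 14.1 to 25.8, Kdr) had 0 genes with such a p at either day in limma, with or without LP6a. Medians at day 21, without LP6a and at day 28 were −0.06, −0.07 and 0.03 for adipocytes, 0.05, −0.01 and 0.04 for fibroblasts, and −0.03, 0.02 and −0.26 for endothelium.

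The genes most like the T cell genes across arrays were found by their correlation with the mean of the 7 T cell genes that were well above background on all 12 arrays. That mean was −0.21, −0.14 and −0.12 in NP and −0.15, −4.76 and −0.63 in LP at day 21, and 0.10, 0.03 and −0.32 in NP and −0.45, −0.42 and −0.79 in LP at day 28. Among 20158 other genes, the 10 with the highest r over 12 arrays were Il21r, Sash3, Cd247, the unnamed probe A_64_P136213, Cd2, LOC100364854, Zap70, Tnfrsf14, Gpr174 and Lef1. Il21r had the highest, at 0.998, and Lef1 was the tenth, at 0.996. A_64_P136213, Cd2, Gpr174 and Lef1 were well above background on only 11 of the 12 arrays. On LP6a A_64_P136213, Cd2 and Lef1 were not. Each of the 10 genes was lowest in LP6a, and how far each correlation rests on that array was not tested. Without it Gpr174 had an r of 0.976, and the others were not among the 10 most alike. Il21r, the receptor of interleukin 21, read −5.68 in LP6a and −0.09 in LP7f, against 0.62 to 1.62 elsewhere. With each group's mean removed, the 10 were Gpr174, LOC100364854, Sash3, Blk, Il21r, Cd247, Ptprc, Bin2, Rhoh and LOC299915, with r from 0.997 to 0.999. These 10 were also all lowest in LP6a, where Blk was not well above background. In the ranking without that array, given next, Gpr174 had an r of 0.976 and Bin2 of 0.979. The others were not among the 10 most alike there.

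Without LP6a, over 11 arrays, a ranking added after the data were seen, the 10 most alike were Rnf145, ENSRNOT00000034159, Bin2, Malt1, Hmha1, Gpr174, FQ213594, Map4k1, Grk6 and Pik3cd, with r from 0.971 to 0.982. Malt1, a protease of the antigen receptor pathway, read −3.04, −3.13 and −3.40 in NP and −3.54, −3.62 and −4.10 in LP at day 28. Pik3cd, the leukocyte PI3-kinase subunit, read −2.23, −2.43 and −2.79 in NP and −2.91, −2.89 and −3.23 in LP at day 28. Both had all LP values below all NP values at that day, a pattern that the T cell mean they were chosen by also has. Gpr174 was the only gene in all 3 rankings.

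The probes that read the T cell genes were all 60 bases long, with 35.0% to 55.0% G and C. Each sequence was on 1 probe only, and the longest run shared by any of the 55 pairs of the 11 probes was 9 bases. The probes of Cd3g, Cd3d and Cd3e lie within 25997 bases of chromosome 8, between 47924376 and 47950372 on the rn4 build that the array files use. The 4 probes printed are those of Cd3e, Lck, Ccr7 and Ccr4. For these genes all LP values lay below all NP values at day 28, and none passed the adjusted limma test. The probes are written in lower case as the array files give them.
Cd3e probe: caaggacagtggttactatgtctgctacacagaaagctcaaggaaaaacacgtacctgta
Lck probe: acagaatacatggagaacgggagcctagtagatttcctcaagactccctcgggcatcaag
Ccr7 probe: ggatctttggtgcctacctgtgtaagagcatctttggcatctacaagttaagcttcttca
Ccr4 probe: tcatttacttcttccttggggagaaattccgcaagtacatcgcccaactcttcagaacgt

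The 250 bases before the RefSeq starts of the T cell genes (GRCr8 build) were searched for short motifs of lymphocyte transcription factor families, on both strands. RefSeq promoters were at hand for 7 of the 10 genes, 8 promoters in all because Lck has 2. GGAAG, the core of ETS factor motifs, was in 6 of the 8, those of Cd3d, Cd3e, Cd3g, Lck and Il7r, and in 63.3% of all 33469 promoters. TGTGGT, the RUNX core, was in 3 of the 8, of Cd28, Lck and Il7r, and in 14.5% of all. CAGCTG, an E box, was in that of Cd3g and in 12% of all. CTTTGA, of TCF and LEF factors, was in that of Cd3d and in 13.9% of all, and AGATAA, of GATA factors, was in that of Cd28 and in 10.3% of all. The promoters of the CD3 chains are printed 5′ to 3′ on the strand of the gene, with the ETS core in capitals, as spelled above or, where it lies on the other strand, as its reverse complement. A match is a description of the letters only.
Cd3d promoter, plus strand, chr8:54185269-54185518: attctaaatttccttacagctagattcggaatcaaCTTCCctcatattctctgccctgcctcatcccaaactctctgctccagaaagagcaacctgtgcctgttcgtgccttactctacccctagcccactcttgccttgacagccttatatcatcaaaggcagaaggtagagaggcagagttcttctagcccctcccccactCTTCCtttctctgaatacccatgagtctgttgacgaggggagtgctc
Cd3e promoter, minus strand, chr8:54211771-54212020: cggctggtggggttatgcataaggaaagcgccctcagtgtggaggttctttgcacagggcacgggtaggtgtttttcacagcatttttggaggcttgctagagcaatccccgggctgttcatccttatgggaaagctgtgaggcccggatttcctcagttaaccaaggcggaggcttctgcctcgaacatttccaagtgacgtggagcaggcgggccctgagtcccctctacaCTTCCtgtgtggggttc
Cd3g promoter, minus strand, chr8:54183919-54184168: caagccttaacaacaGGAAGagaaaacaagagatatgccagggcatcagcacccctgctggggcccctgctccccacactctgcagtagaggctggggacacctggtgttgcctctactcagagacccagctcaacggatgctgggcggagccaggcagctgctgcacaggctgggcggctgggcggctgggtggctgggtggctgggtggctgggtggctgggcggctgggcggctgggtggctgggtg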

How the data were processed

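Gland RNA of 12 rats was read on 12 one-colour arrays. The deposited scanner files (Feature Extraction 10.7.3.1) give the intensity of each of 58717 gene spots, background-subtracted and detrended by the authors. A second deposited table, made by the authors, holds the signal divided by a constant of each array, and was used as an alternative. Outlier spots were left out, spots of a probe averaged, and log2 values taken relative to the 75th percentile of the array. Probes well above background on at least 3 arrays were compared by limma (version 3.58.1, R 4.3.3; 4 group means, empirical Bayes, two-sided, Benjamini-Hochberg over 23209 probes, threshold 0.05); tables were read by version 1.17.8 of data.table. The code was tested on simulated data.

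A gene's probe is the one with the highest mean. Named were all 10 T cell genes; in each of 15 lists, genes with an unadjusted p under 0.05 at either day, otherwise up to 4 with the largest difference; and the 10 genes most correlated with the T cell genes, also with group means removed. The members and lists were chosen with earlier results of these data known. Promoters came from RefSeq. Some genes of the lists are counted but not reported by name here. The labels do not say what the numbers in the array names mean, and arrays with 1 number were not treated as pairs. In all, 24 alternatives were planned (normalization, background, filter, model, outlier spots, a replicate left out) and 6 were added.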

Additional observations from a re-analysis of the deposited data

How the results depend on the processing

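Settings with LP6a of day 21 left out together with another change were chosen after seeing the data. All NP arrays lay in the upper slide row, so a row term rests on LP arrays alone and cannot be told from differences between LP rats. The sign of the day 28 differences depended on the slide row as a covariate: with all 12 arrays the median became 0.40, Cd3d 0.47, Cd3e 0.67, Cd3g 0.75, Cd4 0.15, Cd8a 0.46, Lck 0.40, Il7r 0.32 and Ccr7 0.31, while without LP6a these 8 genes kept their negative sign with the row. The probes with an unadjusted limma p under 0.05 then numbered 524 at day 21 and 835 at day 28, and 530 and 1231 with the row and without LP6a. With only the upper row, also chosen after seeing the data, they were 471 and 765, with 310 for the interaction, an LP change between days of −0.40, and at day 21 Cd4 0.060, Cd8a 0.12, Lck 0.049 and Ccr7 0.013. With normexp background correction the interaction count was 308; without LP6a it was 344, the day 21 count 228, the LP change between days −0.20 and the Ccr4 difference at day 21 0.063. The replicate block, which takes equal numbers as pairs, gave 1886 probes at day 21; without LP6a the block gave an LP change between days of −0.32, and at day 21 Cd3g 0.012, Cd4 0.11 and Ccr4 0.29. Whether the numbers mean litters is not known; deviations of arrays sharing a number correlated between −0.055 and 0.379, not all above 0.1, so the arrays were not paired.

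The LP change between days, 1.44 with all arrays, was −0.22 with the row and without LP6a. Without LP6a and LP7f it was −0.11, with 531 probes at day 21. Leaving out 1 array at a time gave 482 (without LP6a) to 2004 (without LP7c) probes at day 21, 883 (without LP7f) to 3424 (without NP6f) at day 28, and 386 to 860 for the interaction. The median difference of the T cell genes ran from −2.63 to −0.24 at day 21 and from −0.73 to −0.38 at day 28, and the change between days from 0.02 to 0.20 in NP and from −0.26 (without LP6a) to 2.21 in LP.

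With only the arrays of day 28 fitted, 5 T cell genes had an unadjusted limma p under 0.05 at day 28 that did not in the model of 12 arrays, against 7.47% of all tested probes: Cd3d, Cd3e, Cd8a, Lck and Ccr7. The cause of these shifts was not tested. With each other normalization, background, filter or model tried, and with each array left out, the medians at both days kept their negative sign. Signal over background limits Cd28 and Ccr4, which lie near it.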

Other observations

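LP7f of day 28, the lowest of the day for most T cell genes, was the highest of the 12 arrays for some genes of cytotoxic lymphocytes and the lowest of the day for another, all chosen after their values were seen. Gzma, a granule protease, read 0.62, Gzmb, another, 0.02, and Nkg7, a granule membrane protein, 0.57 in LP7f. Klrd1, a natural killer cell receptor, read −2.97 there, the lowest of day 28, and Ctsw, a protease of the same cells, read −3.34 against −2.26 to −2.15 in NP. The chemokine receptor gene Ccr2, found on effector T cells and monocytes, read −3.14 there, also the highest of the 12 arrays. Marco, a scavenger receptor of lymph node and spleen macrophages, read −8.76 in LP6a, not well above background, and −5.39 in LP7f, against −1.0 to 0.32 on the other 10 arrays.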
